A study of Homo sapiens with 14 samples.

Results

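WM9 is an established human melanoma cell line, and PLX4720 is a small-molecule inhibitor of the BRAF kinase. Arrays of WM9 cells kept in 10 µM PLX4720 for 96 h were set against arrays of cells kept in the same dose for 24 h. The 4 arrays, 2 at each time, were taken by their labels from the 14 arrays of the study. The other arrays held cells in 10 µM PLX4720 for 12, 48, 60 or 72 h and cells in the solvent DMSO for 96 h, so that each of the 7 groups had 2 arrays. The series title places the study in the question of what BRAF inhibition does to respiration and senescence. The comparison of 96 h with 24 h asks what went on changing once cells had been in the drug for a day. The design text calls the arrays of a group biological replicates, and since no source names separate cultures or passages, p-values measure the spread between these samples. All groups came from 1 cell line, and the DMSO arrays are of 96 h alone, so hours in the drug and hours in culture cannot be told apart.

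In melanoma cells with a mutated BRAF, the kinases MEK and ERK stay active and keep up transcripts for D cyclins, for MYC and for the pathway's own inhibitors of the Sprouty and dual specificity phosphatase families. Blocking BRAF is known to remove those transcripts, to stop division and, over longer times, to turn on pigment genes that the transcription factor MITF controls. Cells that stop dividing for good are described as senescent, a state known for enlarged lysosomes and for the release of inflammatory proteins and proteases.

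The 14 arrays each had 18867 to 20457 probes above background, and 13172 genes were tested. Between replicates, log2 levels differed with a standard deviation over genes of 0.313 at 24 h and 0.348 at 96 h against 0.554 for the DMSO arrays, which were left out of the fit. Of 12 markers of melanoma cells, 7 were above background on all 4 arrays, among them SOX10, MITF and TYRP1, and none was below background on all treated arrays. TYR, the melanin-forming enzyme tyrosinase, was above background at neither time. Some markers of other cell types were also above background on all 4 arrays: 4 of 11 for fibroblasts (ACTA2, COL1A2, DCN and LUM), 3 of 12 for leukocytes (CD2, CD68 and CD79A), 1 of 10 for endothelium (KDR) and 1 of 10 for keratinocytes (KRT10). Others of the same lists were above background on no treated array, among them COL3A1 and PDGFRA, PTPRC and CD3E, CDH5 and VWF, and CDH1 and KRT5. Division genes were low at both times. The median log2 level of 55 genes of G2 phase and mitosis was 8.03 and 7.94 on the 24 h arrays, 8.22 and 8.08 on those of 96 h, beside 10.31 and 10.02 in DMSO and 11.19 and 11.05 after 12 h in the drug.

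Between 24 h and 96 h in the drug, the largest rises were those of PMEL, the structural protein of the pigment granule, and of CXCL8, the neutrophil-attracting chemokine interleukin 8. The largest falls were those of CRYGS, a crystallin of the eye lens, and of ISG15, a ubiquitin-like protein made in response to interferon. Of 13172 genes, 2749 passed limma's test at an adjusted p of 0.05 (20.9%), of which 1262 were higher at 96 h (9.58%) and 1487 lower (11.3%). The change was over 2-fold for 360 of the risers and 475 of the fallers, and over 4-fold for 46 and 64. The median log2 difference was 0.80 among risers and -0.83 among fallers, against 0.004 over all genes. With arrays aligned by their medians in place of quantiles, the median over all genes moved to -0.10, 536 genes were called higher, and risers made up 27.3% of the calls in place of 45.9%. Leaving out any 1 of the 4 arrays left 1471 to 1816 calls, the fewest without replicate 2 of 24 h.

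PMEL had a log2 level of 7.44 and 7.18 at 24 h but 12.43 and 12.06 at 96 h, passing through 9.03 and 9.37 (48 h) and 10.66 and 10.88 (72 h). At each of these times both arrays lay above both arrays of the time before, and 1 of the 24 h arrays was above background. The rise from 24 h to 96 h was 30.7-fold, log2 difference 4.94, SE 0.20, adjusted p = 2.66e-07. CXCL8 stood at 7.02 and 6.89 at 24 h but 11.16 and 11.89 at 96 h and was not above background on either array at 24 h, so its rise was at least 19.3-fold (log2 difference 4.58, SE 0.22, adjusted p = 5.74e-07). Such a bound sets the mean of the bright time against, on each dim array, the lowest value that was above background there, or the probe's own where that was higher. In DMSO, CXCL8 stood at 10.30 and 9.33, between the 2 drug times. The remaining large rises were of several kinds. CRYAB, a small heat shock protein that keeps other proteins from aggregating, went from 11.59 and 11.50 at 24 h to 15.24 and 15.18 at 96 h (12.7-fold, log2 difference 3.67, SE 0.15, adjusted p = 2.66e-07). PAPPA, a protease that cuts insulin-like growth factor binding proteins, rose by 11.8-fold and FSTL3, a secreted inhibitor of activin, by 7.47-fold. The sorting receptors SORCS2 and SORCS1 rose by at least 14-fold and by 7.39-fold. LGI3, a secreted leucine-rich protein of the nervous system, rose by 14.6-fold and NDNF, a secreted neuron-derived factor, by 7.86-fold. GAPDHS, the glyceraldehyde phosphate dehydrogenase of sperm, rose by at least 9.91-fold, while the main enzyme GAPDH fell by 2.13-fold with a log2 difference of -1.09. C1QTNF5, whose transcript can be shared with the gene MFRP, rose by at least 4.07-fold. FOLR3, which has close paralogs among the folate receptors, rose by 10.8-fold, with 1 of its 24 h arrays above background.

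Among the falls, CRYGS went from 11.69 and 11.96 at 24 h to 7.19 and 7.46 at 96 h (22.7-fold, log2 difference -4.50, SE 0.18, adjusted p = 2.66e-07), with 1 of its 96 h arrays and neither of its DMSO arrays above background. ART3, an ADP-ribosyltransferase family member, went from 11.60 and 11.73 at 24 h to 7.51 and 7.99 at 96 h, a 15.1-fold fall, and PPP2R2B, a regulatory subunit of protein phosphatase 2A, from 12.24 and 12.50 at 24 h to 8.38 and 8.65 at 96 h, with all 4 of its probes lower. HKDC1, a hexokinase, fell by 11.8-fold, also with 1 of its 96 h arrays above background. SCARA5, a ferritin receptor, fell by at least 6.59-fold, LCTL, a protein related to lactase, by at least 7.45-fold, and PODXL, a sialomucin of the cell surface, by at least 4.89-fold. SCRG1 fell by at least 4.03-fold and DNAH9, a heavy chain of ciliary dynein, by at least 3.91-fold. The 24 genes were picked among those whose arrays of one time all lay beyond those of the other, which was so for 59.1% of all genes tested. None of the 24 calls was lost under any of 21 alternative settings.

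**Figure D1:**
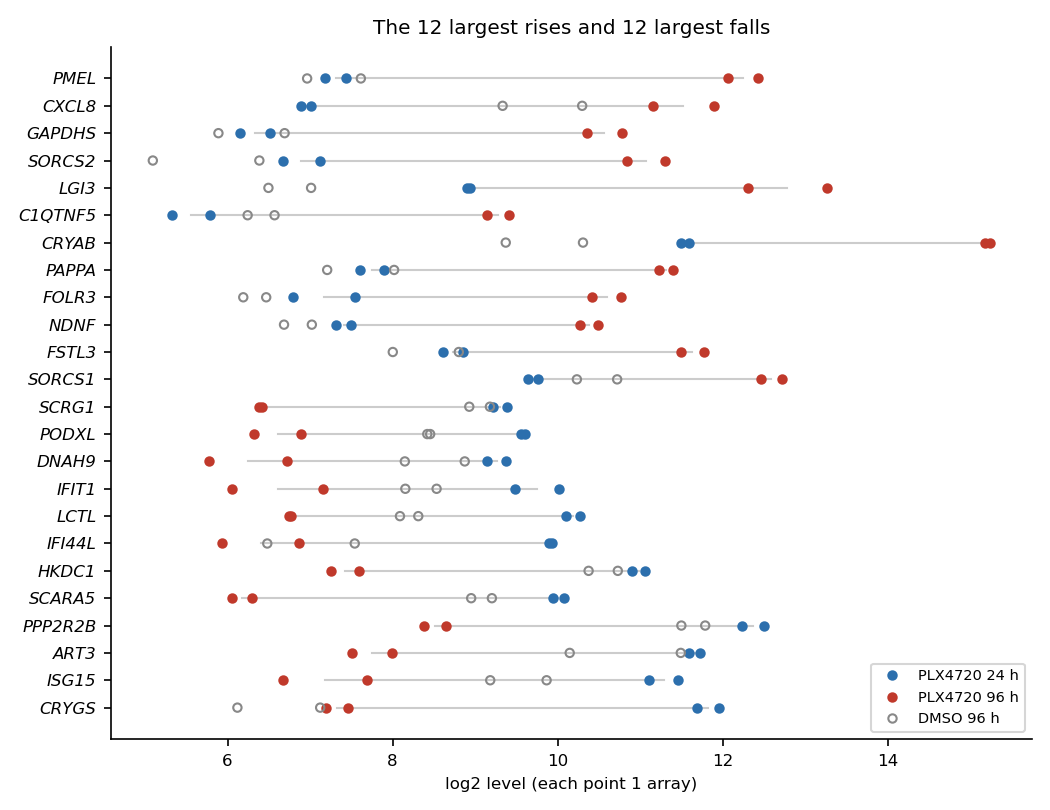
Log2 levels (x axis) on the arrays of 24 h and 96 h in PLX4720 and on the DMSO arrays, 1 point per array, for the 12 largest rises and the 12 largest falls (rows). The grey lines join the means of 24 h and 96 h. PMEL at the top goes from 7.31 to 12.25 and CRYGS at the bottom from 11.83 to 7.33.

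The 4 arrays of 48 h and 72 h were not part of the comparison, though they shared the normalization and the fit. Of the 1262 risers, 1039 were higher at 72 h than at 48 h (82.3%), beside 49.8% of all genes tested, and their median log2 difference was 0.17. Of the 1487 fallers, 1219 were lower (82%), beside 50.1% of all genes, with a median of -0.19. Under alignment by medians these shares were 73.5% of risers and 87.6% of fallers, beside 39.9% and 60.1% of all genes. By limma's test 26 genes differed between 72 h and 48 h (0.197%), 7 higher (0.0531%) and 19 lower (0.144%), and 819 had an unadjusted p under 0.05. All 26 had been called in the same direction between 24 h and 96 h, beside 20.9% of all genes called there in either direction. Both tests took each gene's spread from the same fit. The 7 higher were CXCL8, PAPPA, PMEL, CRYAB, the ERK-dependent transcription factor ETV5, RELN and PSG4, and the lower ones included ISG15, IFI44L, SCARA5, LCTL, SCRG1, PPP2R2B, MIA and IGFBP5. Without replicate 2 of 72 h no gene was called, and without any other single array of these times 3 to 12 were.

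**Figure D2:**
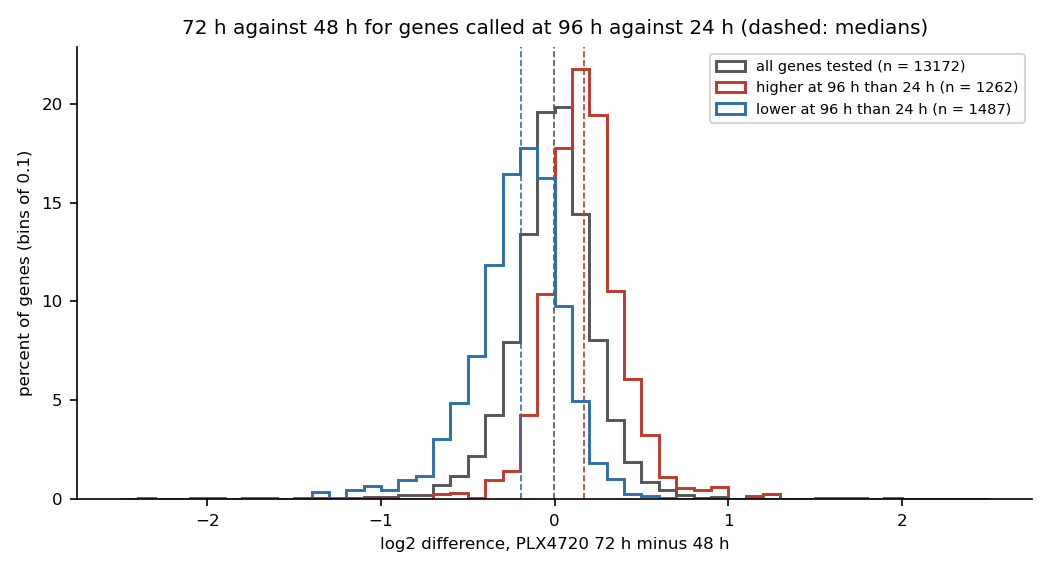
Distribution of the log2 difference between 72 h and 48 h (x axis) as a percent of genes in bins of 0.1 (y axis), for all genes tested, for the 1262 genes called higher at 96 h than at 24 h and for the 1487 called lower. Dashed lines are medians, at 0.17 for the risers and -0.19 for the fallers.

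Of 33 genes tested that are listed as ERK feedback and targets, 16 rose between 24 h and 96 h (48.5%) and 1 fell (3.03%). Over all genes the shares were 9.58% and 11.3%. The median log2 difference of the list was 0.56, and the activity of ERK was not measured here. The median log2 level of the list was 8.63 and 8.53 on the 24 h arrays, 9.44 and 9.44 on those of 96 h, beside 10.44 and 10.76 in DMSO. SPRY1, an inhibitor of receptor signalling to RAS, had a log2 level of 6.91 and 6.64 at 24 h but 9.06 and 8.96 at 96 h. It was not above background at 24 h, and the rise was at least 3.38-fold (log2 difference 2.23, SE 0.16, adjusted p = 7.77e-06). Its DMSO arrays stood at 11.81 and 11.67, above every treated array. The D cyclin CCND1, which starts the cell cycle with CDK4 and CDK6, went from 10.50 and 10.52 at 24 h to 11.93 and 12.02 at 96 h (2.76-fold, log2 difference 1.46, SE 0.14, adjusted p = 5.33e-05), beside 14.96 and 14.62 in DMSO. ETV5 went from 7.93 and 7.98 at 24 h to 9.13 and 9.44 at 96 h (2.52-fold, log2 difference 1.33, SE 0.15, adjusted p = 0.000132), beside 12.96 and 13.18 in DMSO, though only 1 of its 2 probes was higher.

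Some of the transcription factors of the list rose and others did not. MAFF, a small MAF protein, went from 8.63 and 8.53 at 24 h to 11.05 and 10.97 at 96 h (5.39-fold, log2 difference 2.43, SE 0.18, adjusted p = 7.64e-06). MYC, the growth regulator, stood at 9 and 9.11 at 24 h but 10.21 and 10.31 at 96 h, a 2.3-fold rise, and FOSL1, a subunit of AP-1, rose by 2.07-fold. FOS, another AP-1 subunit, fell by 1.5-fold with an adjusted p of 0.0469. EGR1, an immediate early factor, showed no difference past the threshold (log2 difference 0.04, adjusted p = 0.945). Among the feedback inhibitors, SPRY2 rose by 1.62-fold (adjusted p = 0.0478), SPRY4, not above background at 24 h, had a log2 difference of 0.83 (adjusted p = 0.0535), and DUSP6, the phosphatase of ERK itself, stood at 10.12 and 9.92 after 24 h, then 10.30 and 10.01 after 96 h with an adjusted p of 0.651. The arrays of DUSP6 at the 2 times overlapped. SPRY4 passed, as higher, in a limma fit that also paired same-numbered replicates (adjusted p = 0.0436). EPHA2, a receptor kinase, rose by 1.83-fold. The calls of SPRY2 and FOS were each lost under 10 or 11 of the 21 alternatives, and 10 members rose with arrays aligned by their medians.

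Genes of ribosome building, which MYC is known to drive, had a median log2 difference of 0.30. Of 32, 7 rose (21.9%) while none fell, beside 9.58% and 11.3% of all genes. MYBBP1A, a nucleolar protein, went from 8.17 and 7.07 at 24 h to 9.10 and 8.59 at 96 h (adjusted p = 0.0197), with 1 of its 24 h arrays above background. RRP9, a subunit of a small nucleolar particle that takes part in processing ribosomal RNA, rose by 1.98-fold (adjusted p = 0.013). In DMSO their levels were 8.44 and 9.07 for MYBBP1A and 8.10 and 9.19 for RRP9. Among 9 genes of the MYC network, MYC and its antagonist MXD1 rose, the latter by 1.38-fold. With arrays aligned by their medians 1 ribosome gene rose, and leaving out any 1 array of either time left 4 or 5.

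Of 55 genes of G2 phase and mitosis, 11 rose (20%) and 4 fell (7.27%), beside 9.58% and 11.3% of all genes. The median log2 difference was 0.16. The median log2 level of the list was 8.51 on both 48 h arrays and 8.52 on both 60 h arrays, above the 8.22 and 8.08 of 96 h. At 72 h 20 of the 55 were higher than at 48 h, beside 49.8% of all genes. UBE2C, the ubiquitin-conjugating enzyme of the anaphase-promoting complex, went from 8.62 and 8.99 at 24 h to 10.10 and 9.90 at 96 h (2.29-fold, log2 difference 1.20, SE 0.17, adjusted p = 0.000759), below its DMSO levels of 11.98 and 12.43. CENPA, the histone of the centromere, rose by 2.09-fold, CDK1, the kinase of mitotic entry, by 1.51-fold (adjusted p = 0.0257) and its partner CCNB1 by 1.46-fold (adjusted p = 0.0304). FOXM1, the transcription factor that drives mitotic genes, went from 9.83 and 9.69 at 24 h to 8.59 and 8.08 at 96 h (2.68-fold, log2 difference -1.42, SE 0.18, adjusted p = 0.000331), and NCAPG, a subunit of condensin, fell by at least 1.25-fold. MKI67 was above background at neither time.

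Of 44 genes of S phase entry and DNA replication, 5 rose (11.4%) and 2 fell (4.55%), beside 9.58% and 11.3% of all genes. MCM4, part of the replicative helicase, rose by 1.87-fold and RPA2, a subunit of the single-strand binding protein, by 1.78-fold. TK1, thymidine kinase, went from 9.59 and 9.63 at 24 h to 8.71 and 7.88 at 96 h (2.49-fold, log2 difference -1.32, SE 0.25, adjusted p = 0.00367) and CHAF1B, a histone chaperone of replication, fell by 1.6-fold. E2F1, the factor that turns on S phase genes, had a log2 difference of 0.52 (adjusted p = 0.463). With arrays aligned by their medians 3 genes of G2 phase and mitosis and 2 of S phase rose, and leaving out any 1 array of either time left 6 to 8 and 2 to 5. The calls of CDK1 and CCNB1 were lost under 7 and 8 of the 21 alternatives, and 1 of the 2 probes of CDK1 was not higher.

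Of 14 genes of the kinase inhibitors, pocket proteins and their partners, CCND1 rose and 1 fell (7.14% each). CDKN1A, which encodes p21, stood at 15.46 and 15.48 after 24 h, then 15.46 and 15.45 after 96 h (adjusted p = 0.95), with raw signals up to 58981 near the top of the scale. CDKN1B, which encodes p27, had a log2 difference of 0.25 (adjusted p = 0.395) and CDKN2A, which encodes p16, of -0.74 (adjusted p = 0.148). In a limma fit that also paired same-numbered replicates CDKN2A passed, as lower (adjusted p = 0.00716). CDKN1C, which encodes p57, fell by at least 2.99-fold, from 8.82 and 8.92 at 24 h to 7.24 and 6.80 at 96 h. LMNB1, a lamina protein whose loss is used as a sign of senescence, stood at 7.59 and 7.51 after 24 h, then 7.66 and 7.46 after 96 h (adjusted p = 0.987), below its DMSO levels of 9.59 and 9.56 at both times. The high mobility group protein HMGB3 fell by 2.06-fold and lamin A (LMNA) by 1.46-fold (adjusted p = 0.0422). Of 22 p53 targets 3 rose (13.6%) and 2 fell (9.09%), near the 9.58% and 11.3% of all genes, led by GDF15 upward (2.83-fold) and TP53I3 downward (2.86-fold, with 1 of its 2 probes not lower), and 1 or 2 in each direction were called without any 1 of the 4 arrays.

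**Figure D3:**
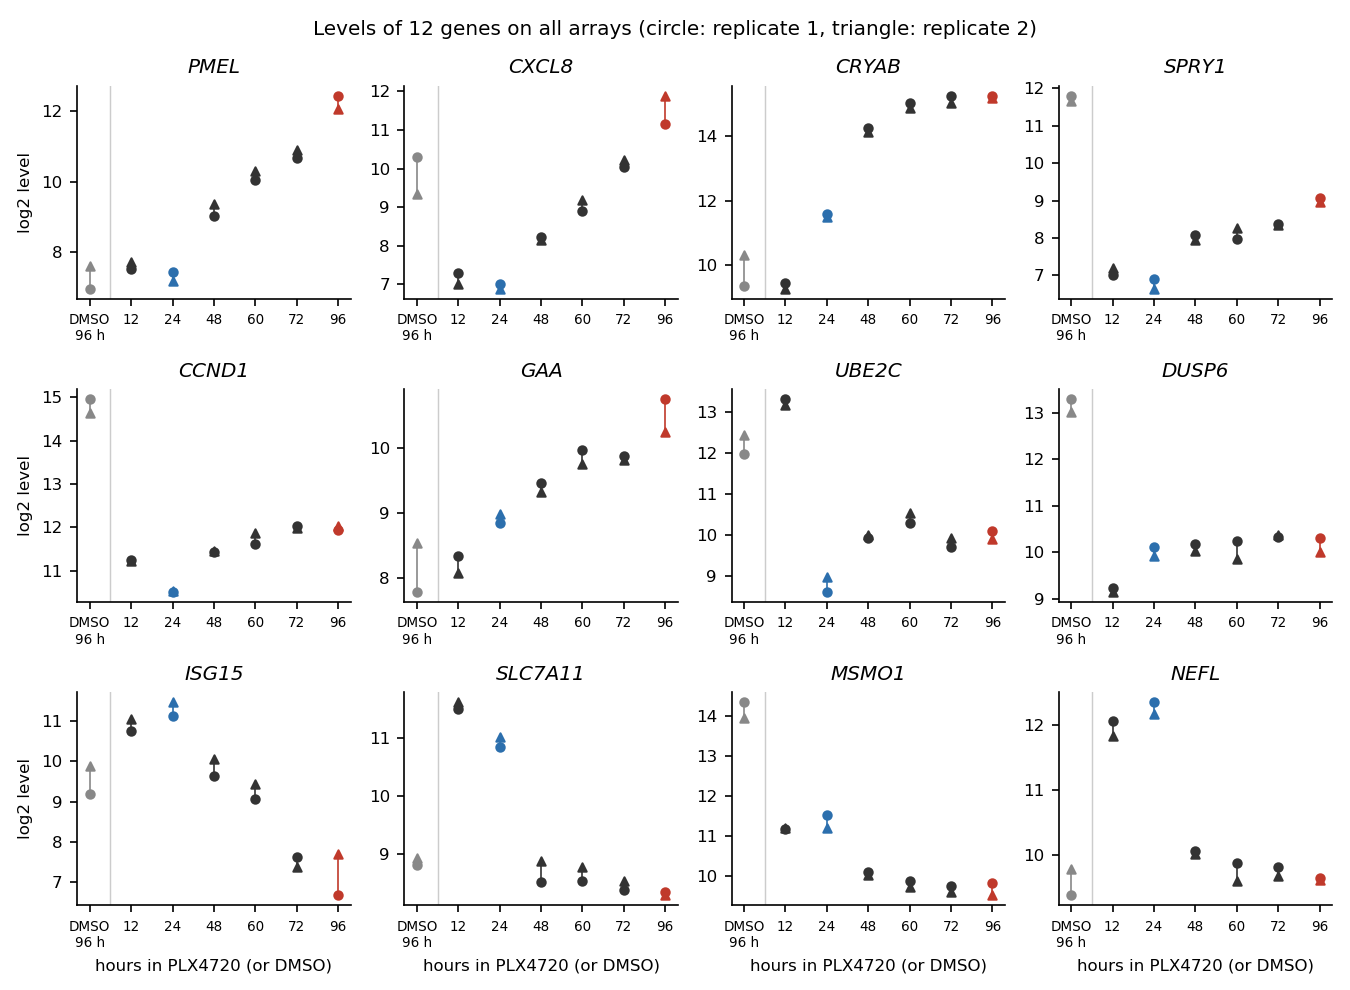
Log2 levels (y axis, a scale of its own in each panel) of 12 genes on all 14 arrays, by hours in PLX4720 (x axis), with the DMSO arrays of 96 h at the left of the grey line, 24 h in blue and 96 h in red. SPRY1 and CCND1 are higher at 96 h than at 24 h, while DUSP6 did not pass the threshold. SPRY1, CCND1 and DUSP6 are below DMSO on every treated array. ISG15, SLC7A11, MSMO1 and NEFL end below their levels at 24 h.

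Of 25 genes of melanosomes and melanin synthesis 9 rose (36%), 1 fell (4%) and 15 did not pass the threshold, beside 9.58% and 11.3% of all genes. The median log2 difference was 0.24, and 9 also rose with arrays aligned by their medians or without any 1 of the 4 arrays. Beside PMEL, APOE, an apolipoprotein that takes part in shaping PMEL fibrils, went from 11.69 and 11.59 at 24 h to 13.90 and 13.62 at 96 h (4.33-fold, log2 difference 2.12, SE 0.16, adjusted p = 7.91e-06). The melanin-making enzyme TYRP1 went from 10.85 and 10.27 at 24 h to 12.62 and 12.36 at 96 h (3.8-fold, log2 difference 1.93, SE 0.20, adjusted p = 9.76e-05), beside 11.27 and 10.87 in DMSO. MLANA, a melanosome protein used as a melanoma antigen, rose by at least 1.55-fold. CDK2, which lies next to PMEL on chromosome 12 and is known to share its control by MITF in melanoma, went from 10.67 and 10.78 at 24 h to 12.12 and 12.31 at 96 h, a 2.81-fold rise, and was named after its values were seen. MBP, the myelin basic protein, fell by 1.55-fold.

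The regulators of the lineage were mixed. MITF stood at 11.23 and 11.05 after 24 h, then 11.32 and 11.08 after 96 h (adjusted p = 0.857), with overlapping arrays and 1 of its 2 probes not higher. SOX10, the factor that turns on MITF, had a log2 difference of 0.21 (adjusted p = 0.427). Of 20 lineage and neural crest regulators 3 rose (15%) and 5 fell (25%), beside 9.58% and 11.3% of all genes. The counts became 1 to 3 and 2 to 4 without any 1 of the 4 arrays. NGFR, a neurotrophin receptor of neural crest cells, went from 10.08 and 10.03 at 24 h to 11.95 and 11.19 at 96 h (2.86-fold, log2 difference 1.52, SE 0.29, adjusted p = 0.00399), and TFAP2A, a crest transcription factor, rose by 1.52-fold. ID1, an inhibitor of basic helix-loop-helix factors, went from 9.49 and 9.52 at 24 h to 6.95 and 6.67 at 96 h, a fall of at least 4.65-fold, and MEF2C, a muscle and crest transcription factor, fell by 1.89-fold. MIA, a protein that melanoma cells secrete, went from 12.64 and 12.70 at 24 h to 10.68 and 10.62 at 96 h (4.04-fold, log2 difference -2.01, SE 0.14, adjusted p = 6.45e-06). Of 16 genes of TGF-beta feedback, in which ID1 is also counted, 3 fell (18.8%) and none rose, and TGFBI, an extracellular protein induced by TGF-beta, fell by 2.39-fold.

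The TYRP1 promoter holds the M-box, the sequence through which MITF is known to act on pigment genes, and is shown with the match in capitals. The window of 57 bases is on the plus strand at chr9:12693215-12693271 of GRCh38.p14, from RefSeq, and the match begins at position -145 from the start of the gene.
TYRP1: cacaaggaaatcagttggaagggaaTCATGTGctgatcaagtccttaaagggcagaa
The motif TCATGTG, searched on both strands in 250 bases before to 50 after each gene's start, was found in 2.99% of 27305 RefSeq promoters. Of the 25 pigment genes 20 had a promoter there, and 4 of these held the motif, of which TYRP1 rose and the other 3 did not pass the threshold.

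Lysosomal enzymes were among the genes that rose. Of 35 hydrolases and membrane proteins 11 rose (31.4%) and 1 fell (2.86%), beside 9.58% and 11.3% of all genes, with a median log2 difference of 0.25. GAA, the enzyme that breaks down lysosomal glycogen, went from 8.84 and 8.98 at 24 h to 10.75 and 10.24 at 96 h (3.0-fold, log2 difference 1.58, SE 0.19, adjusted p = 0.000206), beside 7.79 and 8.54 in DMSO. ARSB, a sulfatase of dermatan sulfate breakdown, went from 10.95 and 11.14 at 24 h to 12.55 and 12.54 at 96 h (2.83-fold, log2 difference 1.5, SE 0.16, adjusted p = 8.73e-05), with all 4 probes higher. IDS, another sulfatase of the same pathway, fell by 2.22-fold. Of 12 cathepsins 5 rose and 1 fell: CTSF rose by 2.64-fold, CTSA by 2.34-fold and CTSK, a collagen-cleaving cathepsin, by 2.02-fold, though raw signals of CTSK reached 67440, near the top of the scale. CTSV fell by at least 1.61-fold. Of 15 subunits of the proton pump 1 passed, ATP6V1B2, at a log2 difference of 0.47 (adjusted p = 0.0361), a call lost under 10 of the 21 alternatives. Of 27 autophagy genes 3 rose (11.1%) and 4 fell (14.8%), near the 9.58% and 11.3% of all genes. The rises were led by WIPI1 (1.94-fold) and OPTN (1.92-fold), the falls by BNIP3L (1.92-fold) and ATG12 (1.84-fold). Without any 1 of the 4 arrays 1 to 3 of the falls were called. With arrays aligned by their medians 6 hydrolase and membrane genes rose in place of 11, and without replicate 2 of 24 h or replicate 1 of 96 h 7 did.

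The promoter of GAA holds the E-box that the lysosomal regulators TFEB and TFE3 are known to recognise. The window of 58 bases lies at chr17:80101524-80101581 (GRCh38.p14, RefSeq, plus strand), with capitals for positions -32 to -25 from the start, where the motif TCACGTG matches on both strands in overlap.
GAA: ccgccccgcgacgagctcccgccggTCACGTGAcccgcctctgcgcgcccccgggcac
This motif was found in 3.82% of the 27305 promoters, and in 5 of the 26 lysosomal genes with a promoter. GAA and MCOLN1 rose among these 5, and the other 3 did not pass the threshold.

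Genes that interferon turns on fell across most of the list. Of 41 genes tested, 28 fell and 2 rose, with a median log2 difference of -0.86, against 11.3% of all genes that fell and 9.58% that rose. ISG15 had a log2 level of 11.11 and 11.46 at 24 h but 6.68 and 7.69 at 96 h (17.1-fold, log2 difference -4.10, SE 0.30, adjusted p = 7.91e-06), and 1 of its 96 h arrays was above background. IFI44L stood at 9.90 and 9.93 at 24 h but 5.93 and 6.87 at 96 h and fell by at least 6.17-fold, and IFIT1, which binds foreign RNA ends, went from 9.49 and 10.02 at 24 h to 7.15 and 6.06 at 96 h, a fall of at least 5.51-fold. All 3 were among the 24 genes picked for having no overlap between arrays of the 2 times, so their lack of overlap follows from that choice. It was shared by 59.1% of all genes tested. IFI27 fell by 2.84-fold, and its DMSO arrays were not above background. The smallest fall past the threshold was -0.51 on the log2 scale (IFITM3, which has near-identical paralogs). The falls covered sensors and effectors of the antiviral state: OAS1, OAS2, OAS3 and OASL, which make or resemble makers of a signal for RNA breakdown, had log2 differences of -0.98 to -1.39, and EIF2AK2, the kinase that stops translation on double-stranded RNA, of -1.37. IFIT2, IFIT3 and IFI44 stood at -2.36, -1.48 and -2.22 (these genes were picked after their values were seen). The 2 that rose were IRF1, a transcription factor, from 7.86 and 7.92 at 24 h to 8.71 and 8.97 at 96 h (adjusted p = 0.0228), and IFI6, from 14.65 and 14.61 at 24 h to 15.11 and 15.11 at 96 h (adjusted p = 0.0316), and both lost their call without any 1 of the 4 arrays. The median log2 level of the list was 9.96 and 10.02 on the 24 h arrays, 8.82 and 9.05 on those of 96 h, beside 9.25 and 9.56 in DMSO.

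On the arrays of 48 h and 72 h, 6 of the 41 genes were higher at 72 h than at 48 h, beside 49.8% of all genes, and the median difference was -0.45. ISG15 went from 9.63 and 10.06 (48 h) to 7.64 and 7.38 (72 h) and IFI44L from 9.72 and 9.46 to 7.58 and 7.55, and both passed the test between these times. Leaving out any 1 array of 24 h or 96 h left 21 to 25 falls in the list.

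**Figure D4:**
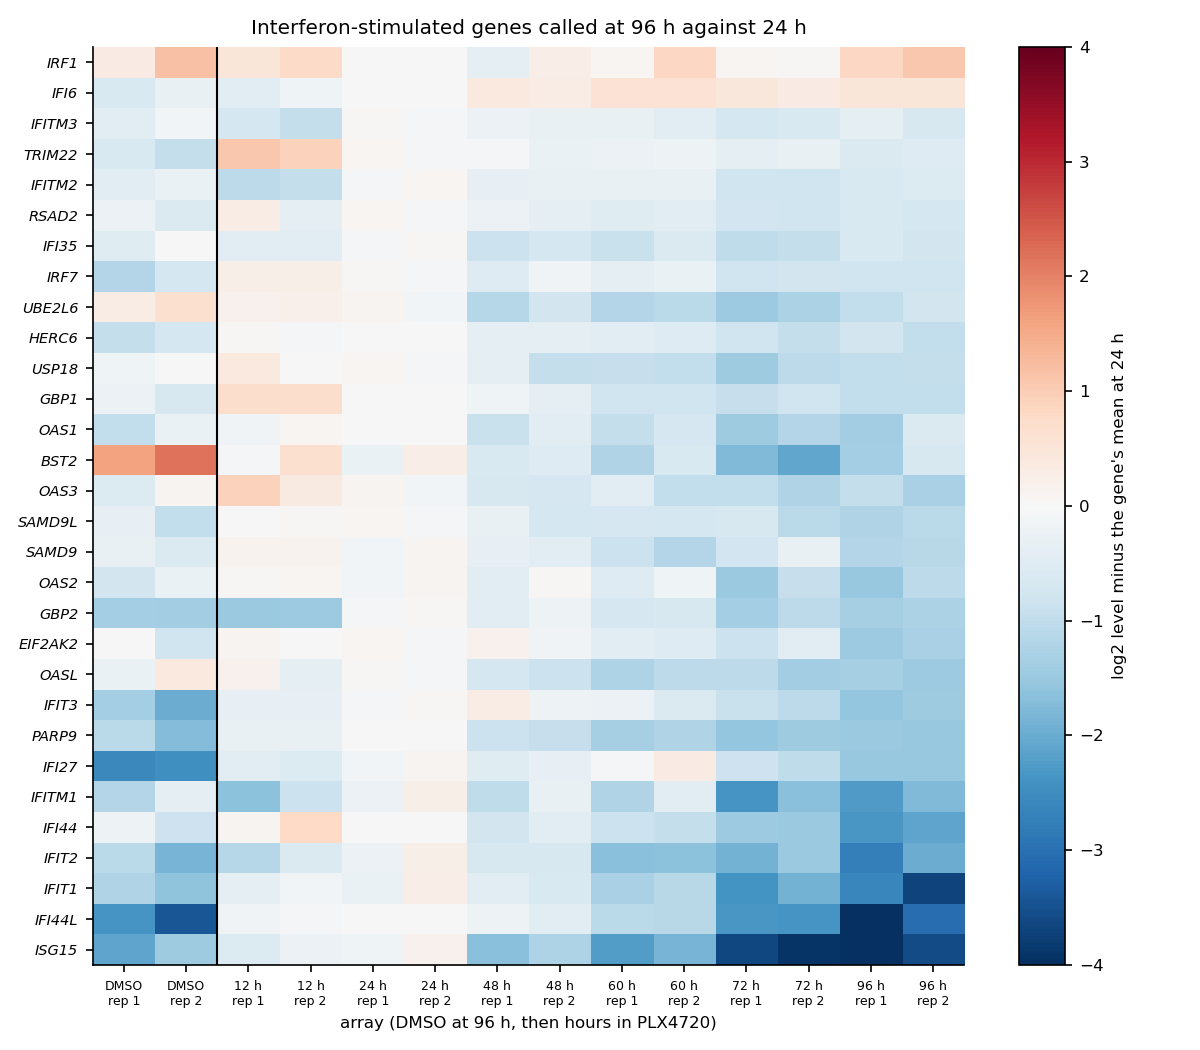
Log2 level minus the gene's own mean at 24 h (colour, blue below and red above, limited to -4 and 4) for the 30 interferon-stimulated genes called between 24 h and 96 h (rows), on all 14 arrays (columns). Below IRF1 and IFI6 at the top, the 28 genes that fell are blue at 96 h, and the bottom rows are ISG15 and IFI44L with log2 differences of -4.10 and -3.52.

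Interferon acts on these genes through the interferon-stimulated response element, a repeat of GAAA spaced by a pair of bases. Promoter windows of 3 genes that fell and of IFI6, which rose, are printed 5′ to 3′ from RefSeq (GRCh38.p14), with matches on either strand in capitals (GAAA, then 2 bases of any kind, then GAAA). The windows are chr1:1013359-1013424 for ISG15, chr10:89392482-89392554 for IFIT1 and chr1:78620350-78620409 for IFI44L, all on the plus strand, and chr1:27672251-27672332 on the minus strand for IFI6.
ISG15: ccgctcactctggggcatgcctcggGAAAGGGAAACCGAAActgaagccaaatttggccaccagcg
IFIT1: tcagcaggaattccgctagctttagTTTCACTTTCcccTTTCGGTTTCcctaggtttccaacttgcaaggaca
IFI44L: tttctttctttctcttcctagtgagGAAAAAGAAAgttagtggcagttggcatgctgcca
IFI6: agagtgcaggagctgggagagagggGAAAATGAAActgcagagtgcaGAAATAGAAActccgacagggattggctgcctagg
In ISG15 the matches overlap and end at position -98 from the start, in IFIT1 both lie on the opposite strand, and IFI44L holds a second match outside the window. The motif was found in 21 of the 32 list genes with a promoter (65.6%), and in 3.65% of all 27305 promoters. It was held by 13 of 20 that fell, by 7 of 10 that did not pass the threshold and by 1 of 2 that rose, so 7 of the 20 that fell had no match in this window.

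Of 17 class I genes of antigen presentation 4 rose (23.5%) and 2 fell (11.8%), beside 9.58% and 11.3% of all genes. TAP2, a subunit of the peptide transporter, went from 10.92 and 10.90 at 24 h to 12.62 and 12.42 at 96 h (3.05-fold, log2 difference 1.61, SE 0.18, adjusted p = 0.000163). HLA-F rose by 1.94-fold (adjusted p = 0.0287), while PSMB9, an immunoproteasome subunit, fell by 1.84-fold. Under alignment by medians, or without replicate 2 of 24 h or replicate 1 of 96 h, 2 class I genes rose and HLA-F did not pass. HLA probes can bind related HLA transcripts, so their values are uncertain. Of 14 class II genes 0 passed, though 12 of them had a positive log2 difference (median 0.24), beside 6627 of all 13172 genes. CD74, the invariant chain, had a log2 difference of 0.43 (adjusted p = 0.125). In a limma fit that also paired same-numbered replicates CD74 passed, as higher (adjusted p = 0.0265). In that fit 4 class II genes rose and 1 fell.

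Factors that senescent cells are known to secrete moved in both directions. Of 36 tested 11 rose (30.6%) and 7 fell (19.4%), beside 9.58% and 11.3% of all genes, with a median log2 difference of 0.42. Beside CXCL8, the inflammatory cytokine IL6 went from 8.47 and 8.28 at 24 h to 10.88 and 11.15 at 96 h (6.25-fold, log2 difference 2.64, SE 0.19, adjusted p = 7.91e-06), beside 7.60 and 7.85 in DMSO. IL1B, named after its values were seen, went from 7.12 and 5.91 at 24 h to 8.62 and 9.09 at 96 h, a rise of at least 3.03-fold. GDF15, a stress-induced member of the TGF-beta family, went from 12.66 and 12.66 at 24 h to 14.05 and 14.27 at 96 h (2.83-fold, log2 difference 1.5, SE 0.15, adjusted p = 7.56e-05), beside 14.03 and 14.42 in DMSO. Proteases and growth factor binding proteins were among those that fell: MMP1, interstitial collagenase, went from 12.68 and 12.27 at 24 h to 11.34 and 10.90 at 96 h (2.56-fold, log2 difference -1.36, SE 0.22, adjusted p = 0.00166), and IGFBP5 from 9.50 and 9.60 at 24 h to 8.34 and 8.13 at 96 h (2.48-fold, log2 difference -1.31, SE 0.17, adjusted p = 0.000385). MMP1 was lowest at 60 h and 72 h, between 9.72 and 10.28, below both of its later arrays. With arrays aligned by their medians 7 of the factors rose, and without any 1 of the 4 arrays 6 or 7 did.

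Of 19 antioxidant genes under NRF2, the factor that answers oxidants and electrophiles, 12 fell (63.2%) and 1 rose (5.26%). Over all genes 11.3% fell and 9.58% rose. The median log2 difference of the list was -0.83. SLC7A11, the cystine importer that feeds glutathione synthesis, went from 10.85 and 11.02 at 24 h to 8.34 and 8.28 at 96 h (6.16-fold, log2 difference -2.62, SE 0.17, adjusted p = 3.86e-06). All 4 arrays of 24 h and DMSO lay above those of 96 h, with DMSO at 8.80 and 8.93. AKR1B10, an aldo-keto reductase, went from 8.68 and 8.57 at 24 h to 6.01 and 6.43 at 96 h, a fall of at least 2.51-fold, and ME1, which makes NADPH, fell by 2.33-fold. The one riser, MAFG, a small MAF partner of NRF2, rose by 1.65-fold, with 2 of its 3 probes higher. At 48 h SLC7A11 already stood at 8.50 and 8.88, and 10 of the 19 genes were higher at 72 h than at 48 h. Without any 1 array of 24 h or 96 h, 11 fell in each case.

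SLC7A11 is also a target of ATF4, the factor of the amino acid response. Of the 26 ATF4 genes 5 rose (19.2%) and 2 fell (7.69%), beside 9.58% and 11.3% of all genes, and 3 rose without any 1 of the 4 arrays. The pseudokinase TRIB3 rose by 2.02-fold and CEBPB, a transcription factor, by 1.84-fold. Beside SLC7A11, NUPR1 fell with an adjusted p of 0.0497, a call lost under 12 of the 21 alternatives. Of 18 chaperones of the endoplasmic reticulum 5 fell (27.8%) and none rose, with a median of -0.34. DNAJC3, which limits a kinase of the unfolded protein response, went from 8.58 and 8.74 at 24 h to 7.99 and 6.71 at 96 h (adjusted p = 0.0169), with 1 of its 96 h arrays above background. MANF, a secreted stress protein, fell by 1.71-fold, and CALR, a calcium-binding chaperone, by 1.54-fold. Between 2 and 4 chaperones fell without any 1 of the 4 arrays.

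Of 18 genes of sterol synthesis and uptake 9 fell (50%) and none rose, beside 11.3% and 9.58% of all genes. The median log2 difference was -0.50, and 4 of the 9 that did not pass were higher at 96 h. MSMO1, a sterol demethylase, went from 11.53 and 11.20 at 24 h to 9.84 and 9.52 at 96 h (3.22-fold, log2 difference -1.69, SE 0.17, adjusted p = 6.74e-05), with DMSO at 14.34 and 13.94, though 1 of its 3 probes was not lower. HMGCS1, which makes the precursor of the mevalonate pathway, went from 11.42 and 11.64 at 24 h to 10.04 and 10.34 at 96 h (2.53-fold, log2 difference -1.34, SE 0.20, adjusted p = 0.000954), with DMSO at 14.92 and 13.79. In both genes the arrays at 96 h lay below those at 24 h, and those at 24 h below DMSO. Of 12 genes of fatty acid synthesis 3 fell (25%), among them ME1 and the desaturase FADS1 (1.88-fold), and none rose. The median log2 level of the sterol list was 10.77 and 11 on the 24 h arrays, 9.96 and 10.14 on those of 96 h, against 12.43 and 12.46 in DMSO.

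Respiration is the subject of the study's title. Of 34 nuclear genes of complex I 2 rose and 1 fell, and of 38 genes of the later complexes and cytochrome c 1 rose, against 9.58% and 11.3% over all genes. The log2 difference was positive for 28 of the 34 (median 0.21) and 27 of the 38 (median 0.12). Over all 13172 genes it was positive for 6627, with a median of 0.004. Under alignment by medians the list medians were 0.13 and 0.04, against -0.10 over all genes. Cytochrome c itself (CYCS) went from 10.79 and 10.69 at 24 h to 11.48 and 11.78 at 96 h (1.86-fold, log2 difference 0.89, SE 0.20, adjusted p = 0.00811), with 9.38 and 8.84 in DMSO. NDUFS8, an iron-sulfur subunit of complex I, rose by 1.53-fold (adjusted p = 0.0134), and the calls of NDUFB9 (adjusted p = 0.0474) and NDUFB4 (adjusted p = 0.0417, above background on 1 of the 4 arrays) were lost under 11 and 16 of the 21 alternatives. PPARGC1A, which encodes the coactivator PGC1-alpha of mitochondrial genes, stood at 11.44 and 11.61 after 24 h, then 11.71 and 11.83 after 96 h (adjusted p = 0.354), above its DMSO levels of 9.53 and 8.63 at both times. On the arrays of 48 h and 72 h it stood between 12.12 and 12.34. The 2 risers of complex I became 0 under alignment by medians, 0 or 1 without any 1 of the 4 arrays and 5 on the authors' own values, and the 1 riser of the later complexes became 5 on those values and 0 without replicate 2 of 24 h.

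Of 15 coactivators and mitochondrial factors 4 rose (26.7%) and none fell, beside 9.58% and 11.3% of all genes. The rises were led by TWNK, the mitochondrial helicase (1.79-fold), and ESRRA, a nuclear receptor that works with PGC1-alpha (1.72-fold). TFAM, which packs mitochondrial DNA, had a log2 difference of -0.65 (adjusted p = 0.0511), and passed, as lower, under 10 of the 21 alternatives. Among these was a limma fit that also paired same-numbered replicates (adjusted p = 0.0121), in which 7 members of the list rose and 2 fell. Under alignment by medians, and on the authors' values, 1 member fell. Among 32 genes of the TCA cycle and fatty acid oxidation, ACADS, an acyl-CoA dehydrogenase, rose by 1.93-fold and DLD, a subunit of the pyruvate and oxoglutarate dehydrogenases, fell by 1.86-fold. Under alignment by medians 1 coactivator or mitochondrial factor rose, and without any 1 array of either time 2 or 3 did, the fewest without replicate 1 of 24 h.

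Of 28 genes of glycolysis and glucose use 6 rose (21.4%) and 3 fell (10.7%), beside 9.58% and 11.3% of all genes. Without any 1 of the 4 arrays 3 or 4 rose. PDK3, a kinase that shuts off pyruvate dehydrogenase, went from 10.93 and 11.14 at 24 h to 12.41 and 12.71 at 96 h (2.88-fold, log2 difference 1.52, SE 0.20, adjusted p = 0.000396), and ENO2, an enolase, rose by 1.94-fold. GAPDH went from 15.57 and 15.43 at 24 h to 14.66 and 14.16 at 96 h (2.13-fold, log2 difference -1.09, SE 0.17, adjusted p = 0.00134), with all 3 probes lower, and PGD, an enzyme of the pentose phosphate pathway, fell by 2.2-fold. SLC2A1, the glucose carrier GLUT1, had a log2 difference of -0.35 (adjusted p = 0.285) and TXNIP, which restrains glucose uptake, of 0.16 (adjusted p = 0.532). Of 22 hypoxia genes 4 rose (18.2%), led by the peptide hormone ADM (2.24-fold) and by NDRG1 (1.74-fold), and none fell. With arrays aligned by their medians 3 glucose genes and 2 hypoxia genes rose.

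Receptor kinases known from cells adapted to BRAF inhibitors moved in both directions. Of 16 tested 4 rose (25%) and 5 fell (31.2%), beside 9.58% and 11.3% of all genes. Without any 1 of the 4 arrays 1 to 3 rose and 2 or 3 fell. ROR1, a receptor of WNT5A, went from 7.66 and 7.15 at 24 h to 8.37 and 8.34 at 96 h (adjusted p = 0.0104), with 1 of its 24 h arrays above background. PDGFRB, a receptor of platelet-derived growth factor, went from 8.43 and 8.18 at 24 h to 6.88 and 6.51 at 96 h, a fall of at least 2.02-fold, and DDR2, a collagen receptor, fell by 2.12-fold, with 1 of its 2 probes not lower. AXL stood at 12.66 and 12.97 after 24 h, then 11.96 and 12.10 after 96 h (adjusted p = 0.0481), a call lost under 8 of the 21 alternatives, and ERBB3, the neuregulin receptor, had a log2 difference of -0.25 (adjusted p = 0.359).

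Of 26 neuronal genes tested 3 rose (11.5%) and 6 fell (23.1%), beside 9.58% and 11.3% of all genes. NEFL, the light neurofilament, went from 12.35 and 12.16 at 24 h to 9.64 and 9.61 at 96 h (6.18-fold, log2 difference -2.63, SE 0.16, adjusted p = 2.34e-06), with DMSO at 9.37 and 9.78 and 48 h already at 10.06 and 10.02. UCHL1, a ubiquitin hydrolase of neurons, went from 12.92 and 12.87 at 24 h to 11.19 and 11.20 at 96 h (3.24-fold, log2 difference -1.70, SE 0.15, adjusted p = 3.56e-05). SYP, synaptophysin, rose by 2.37-fold (adjusted p = 0.00805), with 1 of its 24 h arrays above background.

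Of 37 genes of matrix and integrins 5 rose (13.5%) and 10 fell (27%), beside 9.58% and 11.3% of all genes. SPARC, a collagen-binding matrix protein, went from 12.77 and 12.52 at 24 h to 14.16 and 13.88 at 96 h (2.6-fold, log2 difference 1.38, SE 0.19, adjusted p = 0.000626) and the laminin chain LAMB2 rose by 2.16-fold. The integrin chains ITGB8 and ITGA6 fell by 3.96-fold and 2.99-fold. Without any 1 of the 4 arrays 4 to 6 of the 10 falls were called. Of 24 targets of YAP and TEAD 6 rose (25%) and 5 fell (20.8%), with GADD45B at the upper end (3.62-fold) and CCN2 at the lower (2.56-fold). Of 20 genes of insulin signalling and FOXO 6 rose (30%) and 5 fell (25%), from TRIB1 (2.39-fold higher) to SESN3 (2.34-fold lower). Without any 1 of the 4 arrays 3 to 5 YAP targets rose and 2 to 4 fell, and 2 to 4 of the insulin and FOXO genes rose and 2 to 5 fell. Of 20 BCL2 family members 3 rose (15%), led by BOK (2.31-fold) and BID (2.07-fold), and 1 fell (5%). Of 16 histone genes 1 rose (6.25%) and 2 fell (12.5%), near the shares of all genes. The replication-independent H3-3B rose (2.06-fold), and the falls were those of H2BC4 by 1.91-fold and H3C10 with an adjusted p of 0.0344. The call of H3C10 was lost under 11 of the 21 alternatives and that of H3-3B without replicate 2 of 96 h.

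**Figure D5:**
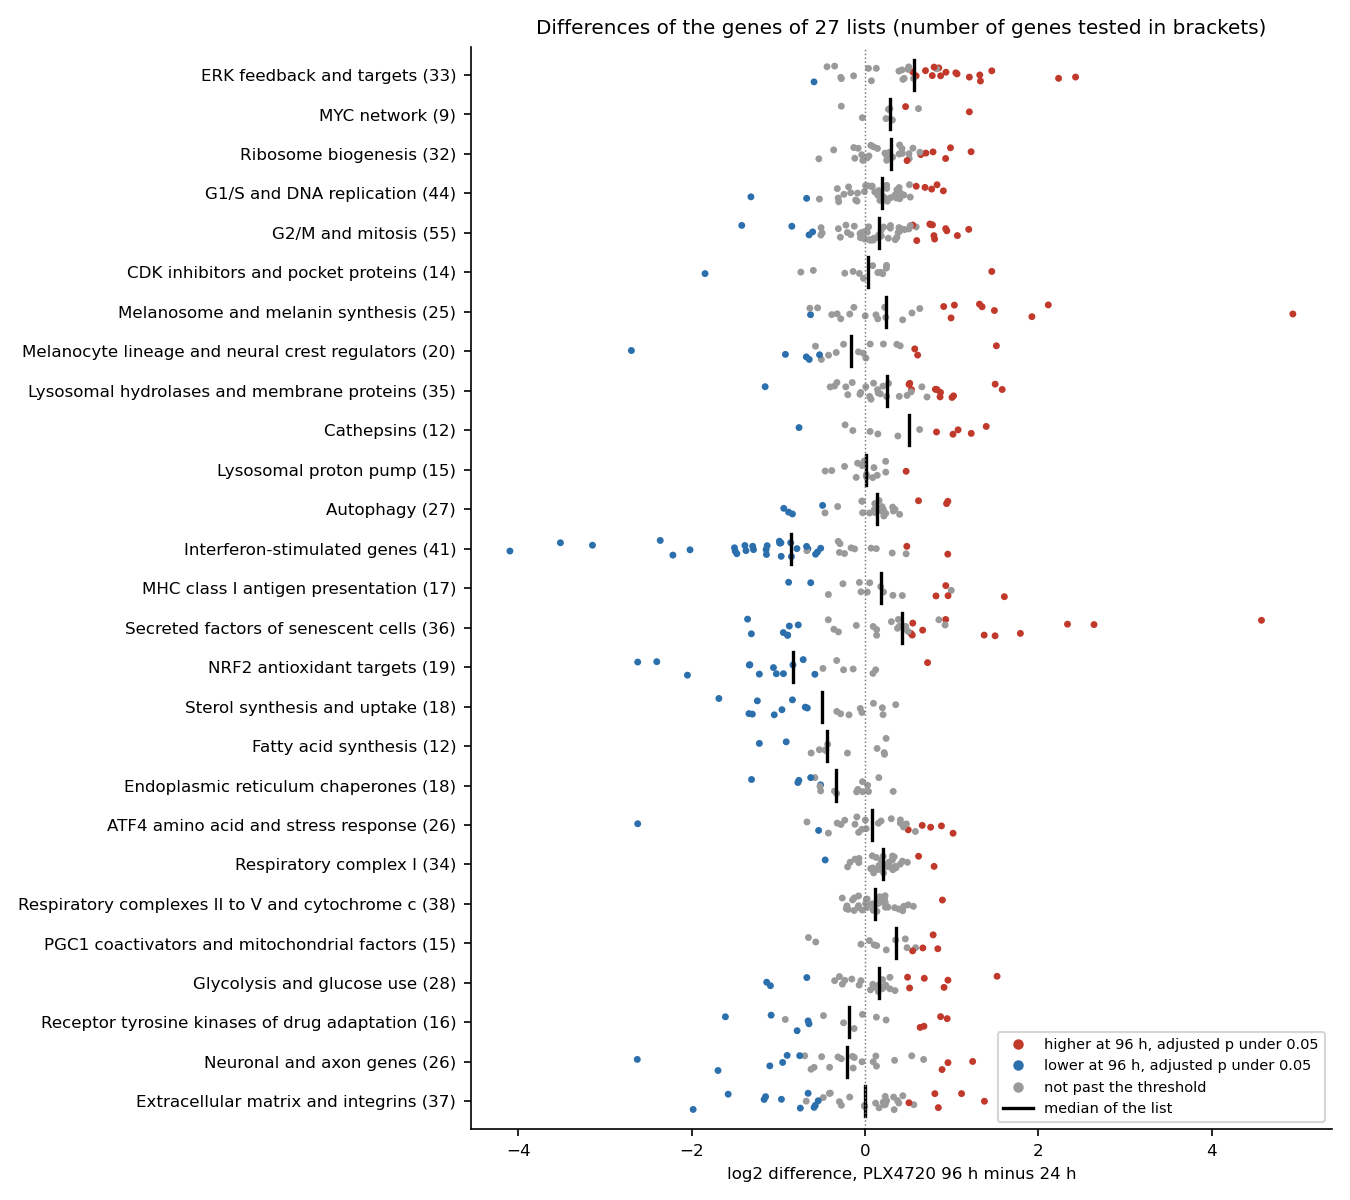
Log2 difference between 96 h and 24 h (x axis) of every gene tested in 27 lists (rows), 1 point per gene, coloured by call, with the list's median as a black bar. The median is -0.86 for the interferon-stimulated genes, -0.83 for the NRF2 targets, -0.50 for sterol synthesis and 0.56 for the ERK targets.

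Some markers of other cell types moved with the comparison. Over all genes 11.3% fell and 9.58% rose, and these marker lists are too short for their shares to be set closely against that. Of 7 fibroblast markers tested 3 fell (42.9%), namely DCN, FAP and PDGFRB, and none rose. The median log2 level of the 7 was 8.95 and 9.05 on the 24 h arrays, 8.20 and 8.30 on those of 96 h. Of 3 keratinocyte markers KRT14 fell by at least 1.21-fold, and of 5 leukocyte markers LYZ, lysozyme, fell by at least 1.42-fold and CD68, a lysosomal protein, rose by 1.36-fold, a call lost under 12 of the 21 alternatives. Of 4 endothelial markers 0 passed. Above background on no treated array were 4 of 11 fibroblast, 7 of 12 leukocyte, 5 of 10 endothelial and 6 of 10 keratinocyte markers. Their part in the other results was not tested. All arrays are labelled as the WM9 line, and in these bulk samples fewer cells with a transcript and less of it per cell cannot be told apart.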

How the data were processed

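RNA of WM9 cells was measured on single-colour bead arrays. For each array the authors deposited a linear signal intensity of every probe, per the file headers, and a second table of their own processed values on a log2 scale, also deposited. Columns for detection p-values in the signal table were empty, so background correction from them was not possible, and what software read the scans is not given in the sources used here. These signals were corrected with normexp (offset 16), taken to log2 and quantile normalized over all 14 arrays with limma 3.58.1 in R 4.3.3. Probes took their gene from the platform annotation: 30113 had 1 gene, 8 several and 17201 were not named, and 30074 of those with 1 gene were matched to RefSeq genes by ID, giving 20046 genes. A probe was above background over the array's mode plus the upper 1% tail of the spread below the mode. Each gene took its brightest probe above background on at least 2 of the 12 treated arrays, which left 13172 genes.

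limma's linear model with empirical Bayes was fitted to the 12 PLX4720 arrays by time, so that the spread is shared by all times (6 residual degrees of freedom), with two-sided p-values adjusted by Benjamini-Hochberg over all genes and a threshold of 0.05. The number of arrays limits the precision (median SE 0.19 on the log2 scale). The fit was tested on simulated data. Genes named are the 12 largest rises and 12 largest falls with no overlap between times, the 2 largest rises and falls of each list, and a fixed list of 35. CDK2, DCN, IFITM3, IL1B, MCOLN1, PSG4, RELN and the remaining members of the interferon list were named after their values were seen. The members and gene lists were chosen with earlier results of these data known. Alternatives were other normalizations, filters, fits and the authors' values, and leaving out each array of 24 h, 96 h, 48 h or 72 h. Leaving out arrays of 48 h and 72 h was chosen after seeing the data. No array of 12 h or 60 h was left out in turn. Of 5 promoter motifs searched in RefSeq promoters, those of the interferon, lysosomal and pigment genes are shown. The sterol element TCACNCCAC was in 1 of 17 sterol gene promoters and in 1.15% of all, and the antioxidant element TGACNNNGC in 3 of 14 and in 13.6%.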

Additional observations from a re-analysis of the deposited data

How the results depend on the processing

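The counts of calls, the list results and the named genes were recomputed under up to 21 alternatives. Named genes here are those picked by the rules, with CDK2 and IL1B. The remaining genes named after their values were seen were not followed singly. Of the 141 named genes past the threshold, 96 were called under all of them and 0 changed sign. The total of 2749 calls between 24 h and 96 h was 1966 with median scaling, 1845 in a fit over all 14 arrays, 2050 in a fit over the 4 arrays and 3085 on the authors' values. Without 1 replicate it ranged from 1471 to 2726, the higher genes from 678 to 1238 and the lower from 793 to 1488. Median scaling left 536 higher genes, and the fit over all 14 arrays 972 lower ones. Between 72 h and 48 h, 26 calls became 64 on the authors' values, 60 with a replicate block, 14 with no filter and 69 with trended, robust shrinkage, and 0 to 12 without 1 replicate. Replicate numbers are shared across times, but no source says that they mark a shared culture or day. The deviations of same-numbered arrays correlated at 0.15 to 0.39 over 15 pairs of times (0.3 for 24 h and 96 h), and the paired fit with a replicate block called 3848 genes between 24 h and 96 h. With the block, CDKN2A (adjusted p = 0.00716, lower), TFAM (0.0121, lower), CD74 (0.0265, higher) and SPRY4 (0.0436, higher) also passed, no other named gene changed its call, 4 class II genes rose and 1 fell, and 4 genes each of complex I and of the later complexes rose. Genes that did not pass the threshold changed sign as follows, and the cause was not tested. DUSP6 was at -0.044 with median scaling and -0.016 to 0.275 without 1 replicate. MITF was at -0.105 with median scaling, -0.158 with the mean of probes and -0.057 to 0.175 without 1 replicate. LMNB1 was at -0.045 with median scaling, 0 on the authors' values and -0.095 to 0.108 without 1 replicate. TXNIP ranged from -0.04 to 0.363 and EGR1 from -0.126 to 0.205 without 1 replicate. Probes near background limit the low levels, where only bounds are given.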
